A study of Mus musculus with 6 samples.

Results

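Genes that mark the earliest steps toward B and T lymphocytes were followed in megakaryocyte–erythroid progenitors (MEPs), bone marrow cells that give rise to red blood cells and platelets. The set was chosen by name and holds 9 genes: *Il7r*, *Ebf1*, *Vpreb1*, *Cd79a*, *Cd79b*, *Blnk*, *Dntt*, *Igkc* and *Cd3e*. Of these, 8 had a value among the 12101 genes of the deposited table, and all 8 passed the filter on low values. *Cd3e*, the epsilon chain of the CD3 complex of T cells, had no value in the table, so its expression was not analysed here.

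The mice carried R26-M2rtTA;Col1a1-tetO-Nanog on a strain labelled CD-1. In this double transgenic Nanog-tg line the transactivator sits at *Rosa26* and is not restricted to blood cells, and doxycycline (dox) switches on a *Nanog* cDNA. Dox was given in the drinking water for 5 days to adult dox-treated mice, while adult untreated mice carried the same transgenes without dox. MEPs were sorted from lineage-negative, cKit+, Sca1- bone marrow by CD34 and CD16/32, with about 20000 cells per library and 3 libraries per group, numbered as replicates 1, 2 and 3. The age within adulthood, and whether a replicate was a single animal or a pool, were not given in the sources used here, so p-values measure only the spread between these libraries.

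Lymphoid priming is the low-level transcription of lymphocyte genes in progenitors that have not yet chosen a fate. In the B lineage, signals through the interleukin 7 receptor and the transcription factor EBF1 switch on the parts of the pre-B-cell receptor, in which VPREB1 stands in for a light chain, CD79A and CD79B carry the signal across the membrane and BLNK links it to enzymes inside the cell. Terminal deoxynucleotidyl transferase, encoded by *Dntt*, adds bases at the joints of antigen receptor genes, and *Igkc* encodes the constant part of the kappa light chain of later B cells. MEPs are not known as a source of lymphocytes.

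Each library held between 11264803 and 16153600 reads on listed genes, and the 8 genes with a value held between 118 and 1502 reads each over all 6 libraries. Values are given as CPM, which are reads per 1000000 of a normalized library size, so that 1 read was worth between 0.0642 and 0.0910 CPM. *Nanog* had 17062, 19609 and 15959 reads in dox-treated replicates 1, 2 and 3, and 9, 13 and 1 reads in untreated replicates 1, 2 and 3, as the labels require. The MEP markers, 8 of 8 with a value, summed to 1788 to 2110 CPM in dox-treated and 2280 to 2590 CPM in untreated libraries. This sum mixes opposite differences. *Itga2b* had 319.0, 314.1 and 66.9 CPM in dox-treated and 37.5, 24.1 and 39.2 CPM in untreated replicates 1, 2 and 3. The means of all other MEP markers in the sum were lower with dox.

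Only *Blnk* passed the test between the groups, and it fell. Across all 12088 genes tested with limma at an adjusted p of 0.05, 555 genes (4.59%) were higher and 384 (3.18%) lower with dox. Of the 8 lymphoid priming genes, 0 were higher and 1 was lower. At an unadjusted p under 0.05 the count was again 1 of 8, against 29.2% of all genes tested. The dox-treated and untreated libraries overlapped for the other 7, whereas 17.7% of all genes tested were higher without overlap and 18.2% lower without overlap. The mean log2 value was higher with dox for 5 genes and lower for 3, and the median log2 fold change of the 8 was 0.24, against -0.03 over all genes tested.

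**Figure D1:**
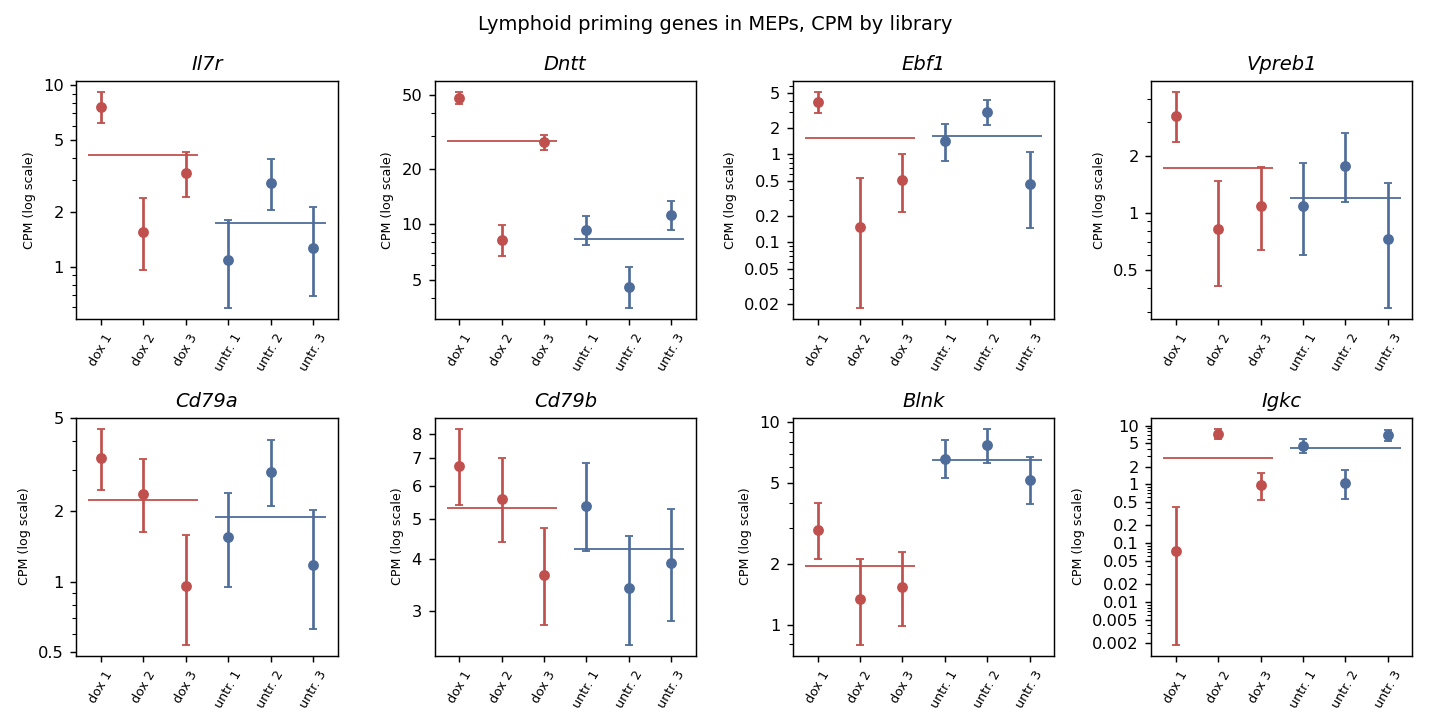
CPM of the 8 lymphoid priming genes with a value, on a log axis, in dox-treated (red) and untreated (blue) libraries. Points are libraries, bars are exact Poisson 95% intervals of the read count, which cover counting error only, and horizontal lines are group means of CPM; the groups separate for *Blnk* and overlap in the other 7 panels.

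*Blnk* and *Dntt* are neighbours on chromosome 19. In NCBIM37, the build used by the authors, *Blnk* (ENSMUSG00000061132) lies on the minus strand at chr19:41003417-41069025 and *Dntt* (ENSMUSG00000025014) on the plus strand at chr19:41103765-41134013. The 2 genes point away from each other, with 34739 bases and 0 annotated genes between them. The 250 bases before each RefSeq start in GRCm38.p6 are shown because the 2 starts face each other across this gap. Capitals mark every match, on either strand, to 4 motifs searched: CCCNNGGG, the core bound by EBF factors; CAGGTG, an E-box bound by E proteins; AGATAA, bound by GATA factors; and AGGAAG, bound by ETS factors.
Blnk, chr19:40994222-40994471, minus strand: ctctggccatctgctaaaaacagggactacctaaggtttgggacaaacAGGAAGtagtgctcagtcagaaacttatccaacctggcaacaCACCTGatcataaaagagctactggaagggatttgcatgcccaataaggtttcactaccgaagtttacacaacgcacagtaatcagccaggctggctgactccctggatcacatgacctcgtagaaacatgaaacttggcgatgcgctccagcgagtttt
Dntt, chr19:41029025-41029274, plus strand: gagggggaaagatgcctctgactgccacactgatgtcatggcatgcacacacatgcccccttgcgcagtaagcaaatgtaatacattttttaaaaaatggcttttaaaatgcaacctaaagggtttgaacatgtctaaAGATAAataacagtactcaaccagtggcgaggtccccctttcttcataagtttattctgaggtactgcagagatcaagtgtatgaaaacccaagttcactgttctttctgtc
The *Blnk* window held AGGAAG and, as CACCTG on the printed strand, the E-box, and the *Dntt* window held AGATAA. No match of these 4 motifs overlapped another in these windows.

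*Blnk*, the adaptor of the pre-B-cell receptor, had 2.95, 1.34 and 1.54 CPM in dox-treated replicates 1, 2 and 3. In untreated replicates 1, 2 and 3 it had 6.61, 7.69 and 5.19 CPM. Every dox-treated library was below every untreated library. The mean over untreated libraries was 6.49 ± 1.25 CPM (SD, n = 3), and over dox-treated libraries it was 1.94 ± 0.875 CPM (SD, n = 3). Its log2 fold change was -1.79 (SE 0.32, 95% interval -2.59 to -0.999, adjusted p = 0.0338, limma). The exact permutation test, two-sided, gave p = 0.1, the smallest that 3 libraries against 3 can reach. The call was lost without dox-treated replicate 2 (adjusted p = 0.109) and without untreated replicate 1 (0.0971), 2 (0.109) or 3 (0.0878), and the log2 fold change was then between -1.94 and -1.58. In bulk samples such as these, fewer cells that express *Blnk* and less *Blnk* RNA per cell cannot be told apart.

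Some markers of other blood cells were also lower with dox. The 7 of 7 neutrophil and monocyte markers with a value summed to between 478.2 and 704.4 CPM in dox-treated and between 2271 and 5236 CPM in untreated libraries. *Nkg7*, the only NK cell marker of 5 with a value, had 7.73 to 9.69 CPM with dox and 24.7 to 51.2 CPM without. Among untreated libraries *Blnk* was highest in replicate 2 (7.69 CPM), where the neutrophil and monocyte sum (2271 CPM) and *Nkg7* (24.7 CPM) were lowest. Among dox-treated libraries *Blnk* was highest in replicate 1 (2.95 CPM), where that sum (704.4 CPM) was highest and *Nkg7* (7.73 CPM) was lowest. The B cell markers, 6 of 9 with a value, summed to 20.4 to 51.5 CPM with dox and 31.3 to 53.6 CPM without, and their groups overlapped. *Ighm* carried much of this sum (35.05 of 51.5 CPM in dox-treated replicate 1), and *Cd79a*, *Cd79b*, *Igkc* and *Ebf1* are 4 of the 6 markers. The part of these cells in the change of *Blnk* was not tested. The lineage-negative, cKit+, Sca1- gate is meant to remove mature cells of these kinds. In the paper, granulocyte–macrophage progenitors came from this same gate and were split from MEPs by further surface markers. The gate alone therefore does not remove such immature myeloid cells, and their part was not tested either.

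**Figure D2:**
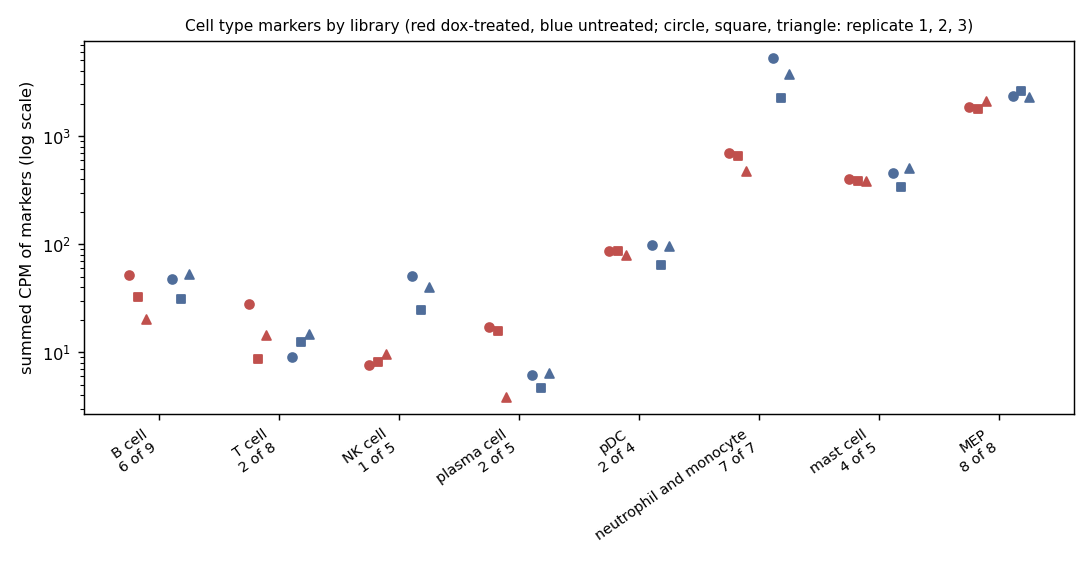
Summed CPM of the markers of 8 cell types in each library, on a log axis, with the number of markers that had a value under each name. Red symbols are dox-treated and blue untreated libraries, and circle, square and triangle are replicates 1, 2 and 3; the groups separate for the neutrophil and monocyte, NK cell and MEP markers and overlap for the B cell and T cell markers.

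*Dntt* had 48.2, 8.19 and 27.8 CPM in dox-treated replicates 1, 2 and 3, and 9.25, 4.58 and 11.2 CPM in untreated replicates 1, 2 and 3. Dox-treated replicates 1 and 3 stood above all other libraries, whereas dox-treated replicate 2 lay among the untreated ones. The mean over dox-treated libraries was 28.1 ± 20.02 CPM (SD, n = 3), and over untreated libraries it was 8.34 ± 3.40 CPM (SD, n = 3). The log2 fold change of 1.51 (SE 0.70, 95% interval -0.21 to 3.22) did not pass the test (adjusted p = 0.214, limma). It was 2.22 without dox-treated replicate 2 and 0.95 without dox-treated replicate 1, and passed under neither. The within-group SD of its log2 values was 1.04, larger than that of 99.1% of the 1329 genes of similar level. Per kilobase of exon *Dntt* was at 13.2 CPM with dox and 3.92 CPM without.

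**Figure D3:**
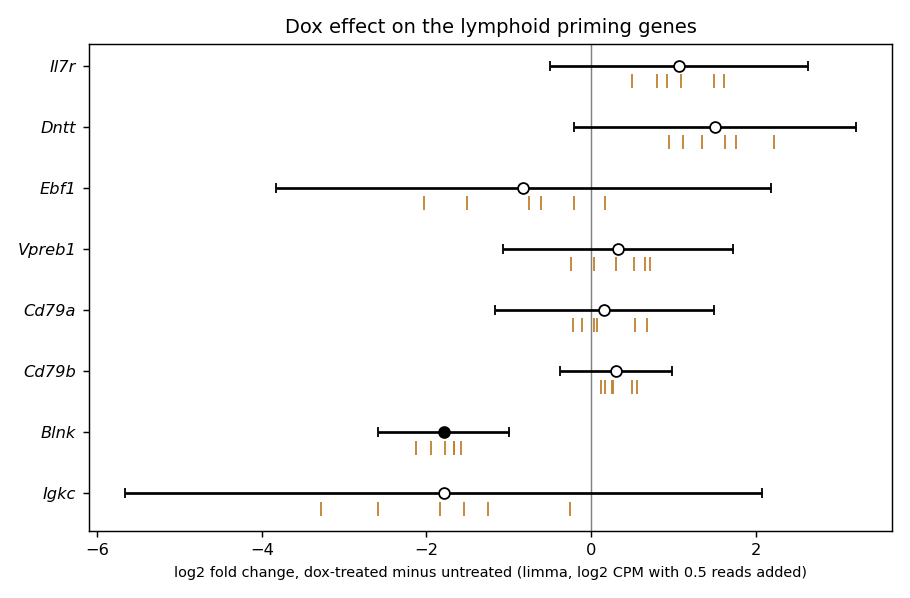
Log2 fold change of each lymphoid priming gene, dox-treated minus untreated, from limma on log2 CPM with 0.5 reads added. Circles with bars are estimates with 95% intervals over 6 libraries (filled where the adjusted p is under 0.05, which holds for *Blnk*), and ticks under them are the estimates without each library in turn; *Blnk* stays between -2.13 and -1.58, while the ticks of *Ebf1*, *Vpreb1* and *Cd79a* lie on both sides of 0.

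*Il7r*, which encodes the alpha chain of the interleukin 7 receptor, lies at chr15:9435916-9459631 on the minus strand of NCBIM37. It had 7.58, 1.56 and 3.27 CPM in dox-treated replicates 1, 2 and 3, and 1.09, 2.88 and 1.27 CPM in untreated replicates 1, 2 and 3. Dox-treated replicate 1 was the highest library, and untreated replicate 2 lay above dox-treated replicate 2. The log2 fold change was 1.07 (SE 0.64, 95% interval -0.50 to 2.64, adjusted p = 0.311, limma), from means of 4.14 ± 3.10 and 1.75 ± 0.986 CPM (SD, n = 3 each). The interval included 0, so a difference in *Il7r* was not detectable at this spread. Without dox-treated replicate 1 its log2 fold change was 0.50, without dox-treated replicate 2 it was 1.62, and it passed under neither.

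The gene lists used from here on were drawn up with earlier results of these data known, so their counts are descriptions and not tests. Of the IL-7 receptor signalling genes, 17 of 18 had a value, 1 was higher and 0 were lower (all genes tested: 4.59% higher, 3.18% lower), with a median log2 fold change of 0.31. The gene that rose was *Socs2*, a feedback inhibitor of cytokine receptor signalling, with 37.2, 26.5 and 7.57 CPM in dox-treated and 1.01, 3.10 and 1.91 CPM in untreated replicates 1, 2 and 3. Its log2 fold change was 3.40 (SE 0.69, adjusted p = 0.0419, limma), and the groups did not overlap. *Stat3*, a transcription factor activated by cytokine receptors, had a log2 change of 1.34 (adjusted p = 0.0515), and *Socs3*, another feedback inhibitor, 1.32 (adjusted p = 0.0841). *Pik3r1*, a regulatory subunit of PI3-kinase, had -0.42 (adjusted p = 0.0773). The count of 1 became 5 without dox-treated replicate 3 and 0 without any other single library.

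*Ebf1*, the factor that starts the B-lineage programme, lies at chr11:44430819-44821593 on the plus strand of NCBIM37. It was read 53, 2 and 8 times in dox-treated replicates 1, 2 and 3, and 18, 41 and 5 times in untreated replicates 1, 2 and 3. These counts were 3.90, 0.149 and 0.513 CPM with dox and 1.40, 3.03 and 0.455 CPM without. Each group thus held libraries with few reads beside a library with many, and the groups overlapped. The log2 fold change was -0.82 (SE 1.23, 95% interval -3.83 to 2.18, adjusted p = 0.679, limma) and turned to 0.17 without dox-treated replicate 2, the library with 2 reads. A pseudogene annotated under the same symbol shared 453 of the 9756 exon bases of *Ebf1*, and how reads there were divided was not stated.

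*Vpreb1* encodes a chain of the surrogate light chain and lies at chr16:16868495-16870936 on the minus strand of NCBIM37. Its value is uncertain because of a near-identical copy, *Vpreb2*, which had no value in the table. Over 429 coding bases the 2 genes differed at 9 (97.9% identical), with an identical run of 196 bases. Coding bases 268 to 387, where 6 of the differences lie, are shown with the differing bases in capitals, since reads that fall within identical coding stretches do not tell the copies apart. Exon bases outside the coding sequence were not compared.
Vpreb1: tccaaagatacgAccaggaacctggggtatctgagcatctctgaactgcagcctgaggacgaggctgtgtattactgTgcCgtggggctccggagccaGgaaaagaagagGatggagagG
Vpreb2: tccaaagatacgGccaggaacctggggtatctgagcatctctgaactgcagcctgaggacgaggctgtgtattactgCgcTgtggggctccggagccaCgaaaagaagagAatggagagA
In addition, 108 of the 1113 exon bases of *Vpreb1* were shared with *Top3b* on the opposite strand, which had 70.2 to 86.7 CPM in dox-treated and 99.5 to 113.8 CPM in untreated libraries. Whether strand was used in counting was not stated, so reads of the shared bases cannot be assigned.

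*Vpreb1* had 44, 11 and 17 reads in dox-treated replicates 1, 2 and 3, and 14, 24 and 8 reads in untreated replicates 1, 2 and 3. These were 3.24, 0.819 and 1.09 CPM with dox and 1.09, 1.77 and 0.728 CPM without. The groups overlapped, with the highest value in dox-treated replicate 1. The log2 fold change was 0.33 (SE 0.57, 95% interval -1.07 to 1.73, adjusted p = 0.721, limma) and was -0.25 without dox-treated replicate 1. *Igll1*, which encodes the other chain of the surrogate light chain, had 78, 7 and 18 reads with dox and 12, 42 and 11 without, in the same order of replicates.

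*Cd79a* and *Cd79b* encode the signalling partners of the B-cell receptor, and their proteins work as a dimer. *Cd79a*, at chr7:25682400-25687216 on the plus strand of NCBIM37, had 3.39, 2.38 and 0.963 CPM in dox-treated replicates 1, 2 and 3, and 1.56, 2.96 and 1.18 CPM in untreated replicates 1, 2 and 3. *Cd79b*, at chr11:106172655-106176076 on the minus strand, had 6.70, 5.58 and 3.66 CPM with dox and 5.37, 3.40 and 3.91 CPM without, in the same order. Both genes were highest in dox-treated replicate 1 and overlapped between the groups. The log2 fold change of *Cd79a* was 0.16 (SE 0.54, 95% interval -1.16 to 1.49, adjusted p = 0.858, limma). For *Cd79b* it was 0.31 (SE 0.28, 95% interval -0.37 to 0.99, adjusted p = 0.488, limma), the narrowest interval of the 8 genes. Per kilobase of exon *Cd79b* was at 3.71 CPM with dox and 2.95 without, and *Cd79a* at 1.54 and 1.30.

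The 250 bases before the RefSeq starts of *Cd79a* and *Vpreb1* in GRCm38.p6 are shown because these genes, like *Blnk*, held both the E-box and the ETS motif there. Capitals mark matches to the 4 motifs given above.
Cd79a, chr7:24897247-24897496, plus strand: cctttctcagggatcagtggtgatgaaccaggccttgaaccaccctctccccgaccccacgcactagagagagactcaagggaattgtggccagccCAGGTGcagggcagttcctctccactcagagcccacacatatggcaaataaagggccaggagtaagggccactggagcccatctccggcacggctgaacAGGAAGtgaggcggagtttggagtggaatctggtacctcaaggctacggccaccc
Vpreb1, chr16:16869256-16869505, minus strand: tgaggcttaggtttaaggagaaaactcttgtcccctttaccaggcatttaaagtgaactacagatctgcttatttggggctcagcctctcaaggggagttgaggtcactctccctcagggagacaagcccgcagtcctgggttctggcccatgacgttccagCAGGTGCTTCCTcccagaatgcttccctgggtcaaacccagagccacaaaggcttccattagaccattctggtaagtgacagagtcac
The E-box began 154 bases before the start in *Cd79a*, 88 in *Vpreb1* and 160 in *Blnk*, and in *Vpreb1* the ETS motif followed it directly. RefSeq promoter entries were found for 7 of the 9 genes, with 8 entries in all because *Ebf1* has a pair of starts. Of these 8 entries, 3 held CAGGTG (17.2% of all 32851 promoter windows of this length), 5 held AGGAAG (29.5%), 1 held AGATAA (9.99%) and 0 held CCCNNGGG (11.8%). These matches describe letters in the windows only.

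Of the genes of pre-B and B-cell receptor signalling, 22 of 26 had a value, 1 was higher and 2 were lower (all genes tested: 4.59% higher, 3.18% lower), with a median log2 fold change of 0.29. *Lyn*, a kinase that phosphorylates the receptor, rose from 35.1 ± 6.02 to 87.3 ± 11.6 CPM (SD, n = 3 each), a log2 change of 1.32 (adjusted p = 0.0158, limma). *Prkcb*, a protein kinase C downstream of the receptor, fell from 5.02 ± 0.959 to 1.02 ± 0.289 CPM (SD, n = 3 each), a log2 change of -2.28 (adjusted p = 0.0108, limma), and *Blnk* was the other gene that fell. With dox *Prkcb* had 0.810, 0.893 and 1.35 CPM, and it passed the filter on low values only through the untreated libraries. Where 1 CPM was required in all 6 libraries, 3 genes of the list were higher and 1 was lower. *Ptprc*, which encodes the phosphatase CD45, had a log2 change of 1.06 (adjusted p = 0.0506), the adaptor *Dapp1* 1.29 (adjusted p = 0.0619) and the exchange factor *Vav2* -0.67 (adjusted p = 0.067). *Lyn* and *Ptprc* are used widely in blood cells outside the B lineage. Without dox-treated replicate 3 the counts were 8 higher and 3 lower, without dox-treated replicate 1 they were 0 and 2, and without dox-treated replicate 2 they were 0 and 1. They were 1 and 1 without untreated replicate 1 or 2, and 0 and 0 without untreated replicate 3.

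*Igkc* lies at chr6:70676429-70676751 on the plus strand of NCBIM37 as a single exon of 323 bases. It had 1, 98 and 15 reads in dox-treated replicates 1, 2 and 3, and 58, 14 and 75 reads in untreated replicates 1, 2 and 3. These were 0.0736, 7.30 and 0.963 CPM with dox and 4.51, 1.03 and 6.82 CPM without. Libraries of both groups fell at the low and at the high end. The log2 fold change was -1.79 (SE 1.58, 95% interval -5.66 to 2.08, adjusted p = 0.479, limma), the same size as that of *Blnk* with an interval that includes 0, and it was between -3.28 and -0.26 when single libraries were left out. Its within-group SD was 2.36 on the log2 scale, larger than that of 98.9% of the 886 genes of similar level. *Igj*, the joining chain of secreted antibodies, which was chosen after its values were seen, had 1, 35 and 3 reads with dox and 37, 0 and 29 without.

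The library with the highest value within each group was shared by some of the genes. *Il7r*, *Ebf1*, *Vpreb1*, *Cd79a* and *Blnk*, 5 of the 8 genes, had their highest dox-treated value in replicate 1 and their highest untreated value in replicate 2, as had 8.27% of all genes tested. *Rag1*, which encodes a subunit of the recombinase of antigen receptor genes, was highest in the same libraries, with 47, 0 and 34 reads with dox and 7, 37 and 3 without. The lowest dox-treated library differed between genes, being replicate 3 for *Cd79a* and replicate 2 for *Il7r*. *Dntt* and *Cd79b* were also highest in dox-treated replicate 1, so that 7 of 8 genes were, against 29.0% of all genes tested. Among untreated libraries, however, *Dntt* and *Cd79b* were lowest in replicate 2, as was *Flt3*, a cytokine receptor of multipotent and lymphoid progenitors, with 235, 79 and 161 reads in untreated replicates 1, 2 and 3. *Igkc* and *Igj* were instead high in dox-treated replicate 2 and in untreated replicates 1 and 3. *Ighm*, the heavy chain of IgM, had 476, 215 and 204 reads with dox and 420, 239 and 440 without. Dox-treated replicate 1 also had the highest sum of the T cell markers *Lck* and *Tcf7*, 27.9 CPM against 8.64 and 14.6 CPM in dox-treated replicates 2 and 3, and the part of mature T cells, which the lineage-negative gate is meant to remove, was not tested. This sharing of the highest libraries was noticed in these data and was not tested. Without dox-treated replicate 1 and untreated replicate 2 together, a choice made after seeing the data, 0 of the 8 genes passed in either direction, and 2 and 4 of all genes tested were higher and lower. *Blnk* then had a log2 fold change of -2.003 (SE 0.20, adjusted p = 0.0633), no smaller than with all 6 libraries.

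**Figure D4:**
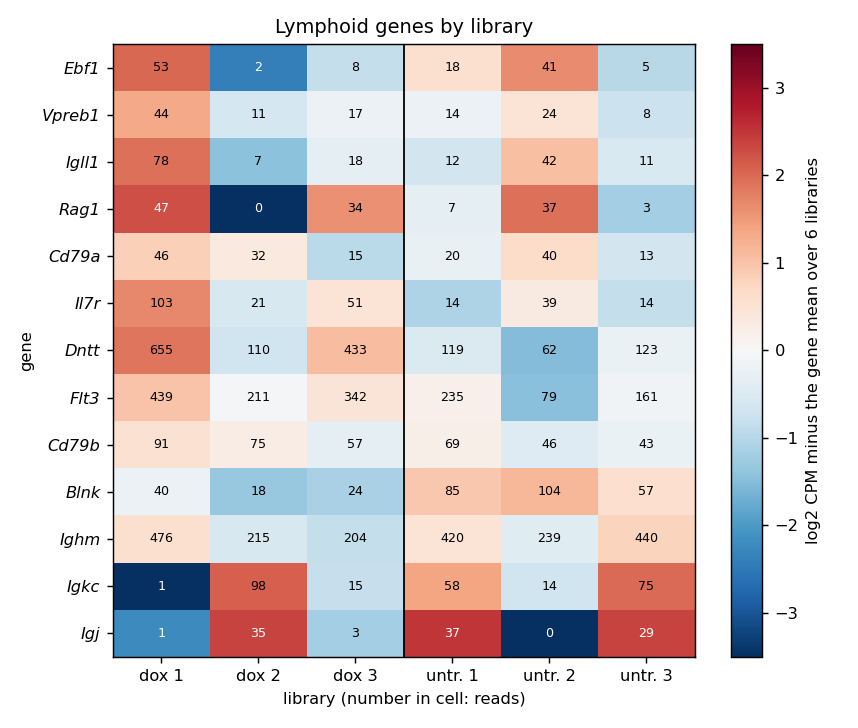
Lymphoid genes (rows) in each library (columns), coloured by log2 CPM minus the gene's mean over the 6 libraries, with colours capped at 3.5 and recovered reads written in the cells. The rows from *Ebf1* to *Il7r* are red in dox-treated replicate 1 and untreated replicate 2, while *Igkc* and *Igj* are red in dox-treated replicate 2 and untreated replicates 1 and 3. Some of the first rows are also red elsewhere, such as *Il7r* in dox-treated replicate 3 (3.27 CPM, against 2.88 CPM in untreated replicate 2).

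Spread between libraries differed among the 8 genes. Against genes of similar level, the within-group SD was larger than that of 99.1% of genes for *Dntt*, 98.9% for *Igkc*, 94.5% for *Ebf1* and 89.6% for *Il7r*. It was larger than that of 78.1% for *Cd79a* and 75.5% for *Vpreb1*, and near the middle for *Blnk* (51.0%) and *Cd79b* (46.6%). The genes with the highest Pearson r of log2 values over the 6 libraries, given as a description, were *Ncoa5* for *Blnk* (r = 0.997), *Fkbp15* for *Cd79b* (0.999), *Gm13305* for *Igkc* (0.99), *Gm13225* for *Dntt* (0.98) and *Sh3gl1* for *Cd79a* (0.97). For *Vpreb1* the closest were *Faim* (0.96) and *Igll1* (0.94), for *Ebf1* the closest was *Ppp2r5e* (0.96), and for *Il7r* the closest was *Eef2k* (0.94). With 6 libraries and 12088 genes, values of this size are easily reached.

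Levels between genes were compared per kilobase of exon, as CPM per kilobase. In untreated MEPs the order was *Igkc* (12.8), *Dntt* (3.92), *Cd79b* (2.95), *Cd79a* (1.30), *Blnk* (1.08), *Vpreb1* (1.08), *Il7r* (0.545) and *Ebf1* (0.167). The untreated SD of *Igkc* (9.02) exceeded its gap to *Dntt*, the untreated SD of *Dntt* (1.60) exceeded its gap to *Cd79b*, and the values of *Cd79a*, *Blnk* and *Vpreb1* lay within the untreated SD of *Cd79a* (0.642). In dox-treated MEPs *Dntt* came first (13.2), ahead of *Igkc* (8.60) and *Cd79b* (3.71), and *Ebf1* was again the lowest (0.156). The dox-treated SDs of *Dntt* (9.41) and *Igkc* (12.2) exceeded the gap between them, and in dox-treated replicate 2 *Igkc* (22.6) lay above *Dntt* (3.85).

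Wider lists of lymphoid genes, also drawn up with earlier results known, were read from the same fit. Of 35 genes of the B lineage list, 18 had a value, 0 were higher and *Blnk* alone was lower (all genes tested: 4.59% higher, 3.18% lower), with a median log2 fold change of -0.05. The next smallest p-values were those of *Tcf3*, an E protein (-0.39, adjusted p = 0.0755), *Cd74*, the invariant chain of MHC class II (-1.26, adjusted p = 0.1004), and *Bach2*, a transcriptional repressor at work in B cells (1.32, adjusted p = 0.129). *Pax5*, *Ms4a1*, *Rag2* and 14 other genes of the list had no value in the table. Without dox-treated replicate 3 the list had 3 genes higher and 3 lower. It had 0 and 1 without dox-treated replicate 1, and 0 in either direction without any other single library.

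Of 28 genes of the T lineage list, 11 had a value, 4 were higher and 1 was lower (all genes tested: 4.59% higher, 3.18% lower), with a median log2 fold change of 0.39. *Gata3*, a transcription factor of early T cells that other blood progenitors also use, had 35.3, 33.1 and 12.2 CPM with dox and 1.48, 1.995 and 3.64 CPM without, a log2 change of 3.43 (SE 0.52, adjusted p = 0.0218, limma). *Themis*, known for its part in thymocyte selection, had 16.8, 14.2 and 2.37 CPM with dox and 0.700, 0.296 and 0.182 CPM without, a log2 change of 4.44 (SE 0.85, adjusted p = 0.0370, limma). *Lat*, an adaptor of the T-cell receptor that mast cells and platelets also hold, rose by 1.89 (adjusted p = 0.0408) and *Trat1*, another T-cell receptor partner, by 2.25 (adjusted p = 0.0408) on the log2 scale. In all 4 the groups did not overlap, and dox-treated replicate 3 was the lowest of its group. *Themis* and *Trat1* (1.17, 0.591 and 0.910 CPM in untreated replicates 1, 2 and 3) passed the filter on low values only through the dox-treated libraries, where they were high. *Ubash3a*, a phosphatase family protein that dampens T-cell receptor signals, fell from 56.4 ± 0.430 to 19.1 ± 5.18 CPM (SD, n = 3 each, adjusted p = 0.0146, limma).

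Most defining markers of T cells had no value to set beside these genes. *Cd3d*, *Cd3e*, *Cd3g*, *Cd4*, *Cd8a* and *Bcl11b* were without one, and the other 2 of the 8 T cell markers, *Lck* and *Tcf7*, summed to between 8.64 and 27.9 CPM with dox and between 9.02 and 14.8 CPM without. *Lck*, the kinase that starts T-cell receptor signalling, had a log2 change of 0.39 (adjusted p = 0.628). The 4 of 5 mast cell markers with a value summed to between 382.8 and 399.1 CPM with dox and between 336.8 and 502.5 CPM without. *Kit*, which is also a MEP marker, carried most of these sums. It had 319.8, 304.4 and 322.6 CPM in dox-treated and 443.2, 327.4 and 485.5 CPM in untreated replicates 1, 2 and 3. The sum therefore does not show how the other mast cell markers differed. The authors reported that genes raised with dox were enriched for the mast cell programme. The count of 4 higher genes was 5 without dox-treated replicate 3 and 0 without any other single library. The count of lower genes was 1 without dox-treated replicate 2 or 3 and 0 without any other single library.

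**Figure D5:**
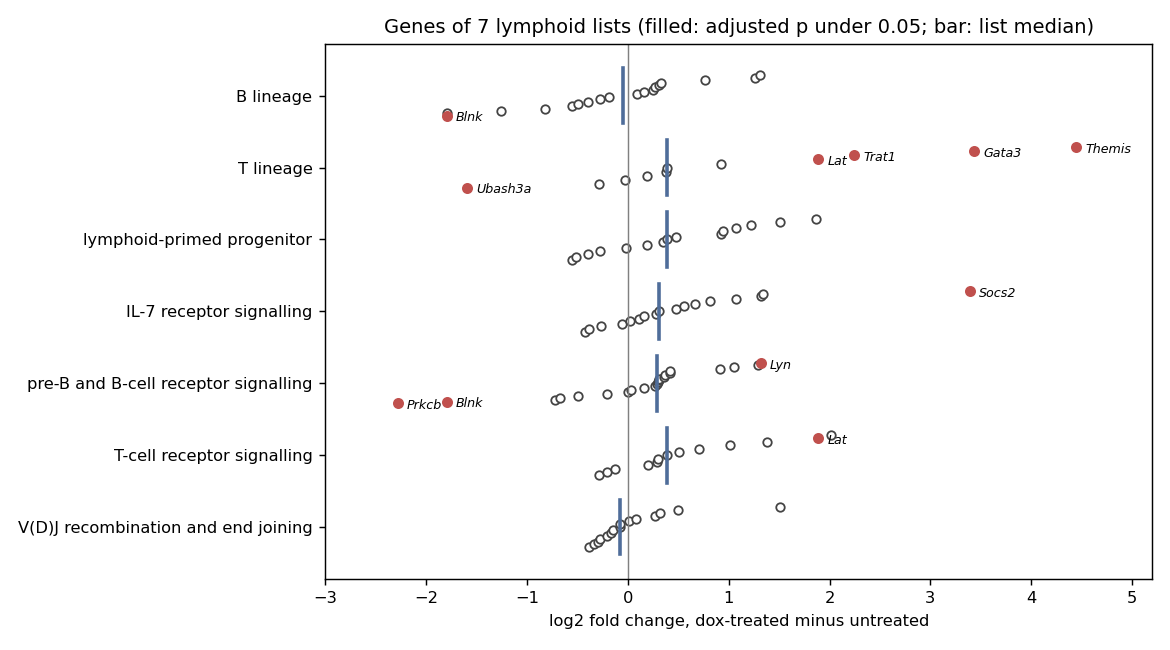
Log2 fold change, dox-treated minus untreated, of every gene with a value in 7 lymphoid lists. Filled points have an adjusted p under 0.05 in limma, bars are list medians, and the vertical offset within a list only separates the points; the called genes to the right are *Gata3*, *Themis*, *Trat1*, *Lat*, *Socs2* and *Lyn*, and those to the left *Prkcb*, *Blnk* and *Ubash3a*.

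In the T-cell receptor signalling list, 13 of 21 genes had a value, *Lat* was higher and 0 were lower (all genes tested: 4.59% higher, 3.18% lower), with a median of 0.39. The phospholipase *Plcg1* had a log2 change of 1.38 (adjusted p = 0.0799) and the adaptor *Grap* 2.02 (adjusted p = 0.105), and neither passed. The count was 5 without dox-treated replicate 3 and 0 without any other single library.

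Of the lymphoid-primed progenitor list, 15 of 19 genes had a value and 0 passed in either direction, against 4 of 15 at an unadjusted p under 0.05 (29.2% of all genes tested), and the median log2 fold change was 0.39. *Ikzf1*, the factor Ikaros, had a log2 change of -0.51 (adjusted p = 0.0656) and *Flt3* 0.94 (adjusted p = 0.252). Without dox-treated replicate 3 the counts were 3 higher and 2 lower.

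Of the V(D)J recombination and end joining list, to which *Dntt* belongs, 15 of 16 genes had a value and 0 passed in either direction, against 3 of 15 at an unadjusted p under 0.05 (29.2% of all genes tested), with a median of -0.07. *Hmgb2*, a chromatin protein that aids the recombinase, had -0.39 (adjusted p = 0.0717) and the polymerase *Poll* -0.33 (adjusted p = 0.103). *Dntt* had the largest log2 fold change of the list. Without dox-treated replicate 3 the counts were 1 higher and 2 lower.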

How the data were processed

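RNA was sequenced from sorted MEPs of 3 dox-treated and 3 untreated libraries. Adapters were trimmed by the authors with Cutadapt, reads were mapped and quantified with RSEM against Ensembl transcripts of NCBIM37, and limma was used for normalization. The deposited values are log2 CPM with 0.5 reads added for 12101 genes, of which 12067 matched a symbol in the NCBIM37 annotation (GENCODE). How limma scaled the libraries, which low genes were dropped and whether strand was used are not given in the sources used here. Columns were matched to samples by their labels, and replicates were not pooled.

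Reads were recovered from the deposited values, and 100% of values were whole within 1e-06 reads in every library. CPM printed here are without the 0.5 reads. Differential expression used limma 3.58.1 (R 4.3.3; linear models with moderated variances) on the log2 values as deposited, for the 12088 genes that reached 1 CPM in 3 or more libraries. P-values were adjusted over all of these genes by Benjamini–Hochberg, with a threshold of 0.05. Fold changes understate low genes because of the 0.5 reads. Exact permutation tests were two-sided. The fit was also run on simulated counts, drawn with the same extra spread for every gene and no effect of single libraries. That run therefore does not test how the fit handles the spread between the real libraries. Figures were drawn with matplotlib 3.10.9, and tables were made with pandas 2.3.3 and numpy 2.4.6 in Python 3.11.15. Promoters came from RefSeq (GRCm38.p6), and coding sequences and positions from NCBIM37.

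The genes and lists were chosen with earlier results of these data known. Named were every gene of the set, list genes past the threshold (at most 6 a list) with up to 3 more by smallest p, defining lymphocyte markers, *Nanog*, and the genes closest in Pearson r. A few genes that this rule names are not reported here. Alternatives changed the pseudocount, filter, variance model, weights, scaling, threshold and replicate block, and left out each library in turn.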

Additional observations from a re-analysis of the deposited data

How the results depend on the processing

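The counts over all genes depended on the processing. As reported, 555 genes were higher and 384 lower with dox. The counts were 909 and 747 under limma's trend option, 2515 and 2601 under array weights, 53 and 29 with the replicate block, 1273 and 939 at an adjusted p under 0.1, 1888 and 1645 at an unadjusted p under 0.05, and 2 and 4 without dox-treated replicate 1 and untreated replicate 2. When single libraries were left out they ranged from 92 to 1801 and from 36 to 1687, and the highest counts came without dox-treated replicate 3.

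Same-numbered libraries did not deviate together (correlations 0.02, -0.12 and -0.30), so the numbers were not taken to pair samples. With the replicate block 0 lymphoid priming genes were lower (*Blnk* adjusted p = 0.0891), and the T lineage list had 1 gene higher and 0 lower. With the block and voom precision weights together, chosen after seeing the data, 1 was higher, *Dntt* (log2 fold change 1.71, adjusted p = 0.0184), and *Blnk* kept its call (adjusted p = 0.0435). The count of lower genes was 0 to 1 with single libraries left out and 0 without dox-treated replicate 1 and untreated replicate 2. *Blnk* passed in 12 of 18 alternatives, with adjusted p from 0.0196 to 0.109.

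Signs of the log2 fold change turned for *Cd79a* under quantile scaling (-0.082), without dox-treated replicate 1 (-0.22) and without untreated replicate 3 (-0.11), for *Cd79b* without dox-treated replicate 1 and untreated replicate 2 (-0.022), for *Ebf1* with array weights (0.11) and without dox-treated replicate 2 (0.17), and for *Vpreb1* without dox-treated replicate 1 (-0.25). With single libraries left out, *Cd79a* ranged from -0.22 to 0.67, *Cd79b* from 0.12 to 0.55, *Ebf1* from -2.03 to 0.17 and *Vpreb1* from -0.25 to 0.72. Of 140 fold changes under alternatives other than the threshold, 126 kept sign and side of the threshold. *Cd79a*, *Igkc*, *Ebf1* and *Vpreb1* were not tested where 1 CPM was required in all 6 libraries. Of 440 list counts, 279 were within 1.5 times the reported count and 161 were not. The causes were not tested, and fewer libraries leave fewer degrees of freedom.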

Other observations

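Lists of other lymphoid and related cells also held genes that passed the test. Of the NK and innate lymphoid list, 11 of 19 genes had a value, 0 were higher and 3 were lower (all genes tested: 4.59% higher, 3.18% lower), with a median log2 fold change of -0.60. *Nkg7*, a granule protein of cytotoxic cells that is also made in myeloid cells, fell (log2 fold change -2.12, adjusted p = 0.0163, limma), as did *Id2*, an inhibitor of E proteins (-1.95, adjusted p = 0.0153), and *Cst7*, a protease inhibitor of cytotoxic and myeloid cells (-1.93, adjusted p = 0.0325). The neutrophil and monocyte markers also summed to less with dox (478.2 to 704.4 CPM, against 2271 to 5236 CPM without). The part of such cells was not tested. *Gzmb*, a granule protease of cytotoxic cells and mast cells, had 1, 3 and 15 reads in dox-treated replicates 1, 2 and 3 and 50, 38 and 34 reads in untreated replicates 1, 2 and 3, and did not pass (adjusted p = 0.0525). The count of 3 lower genes was 4 without dox-treated replicate 3, 2 without untreated replicate 1, 3 without untreated replicate 2 and 0 without dox-treated replicate 1 or 2 or untreated replicate 3.

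Of the plasmacytoid dendritic list, 5 of 15 genes had a value, 1 was higher and 1 lower (all genes tested: 4.59% higher, 3.18% lower), with a median of 0.57. *Lag3*, an inhibitory receptor, rose by 1.91 (adjusted p = 0.0115, limma). It had 0.778, 0.887 and 0.546 CPM in untreated replicates 1, 2 and 3, and passed the filter on low values only through the dox-treated libraries. *Irf8*, a transcription factor of dendritic cells, monocytes and B cells, fell (-2.41, adjusted p = 0.0185). The fall was lost without dox-treated replicate 1 or 2 or untreated replicate 1 or 3, and the count of higher genes was 2 without dox-treated replicate 3. *Irf8* and *Tcf4*, the 2 of 4 plasmacytoid dendritic cell markers with a value, summed to between 79.4 and 87.4 CPM with dox and between 64.6 and 99.1 CPM without. *Tcf4* differed from *Irf8* in sign, with 78.2 ± 3.66 CPM with dox and 52.3 ± 7.18 CPM without (SD, n = 3 each, adjusted p = 0.0551), so the sum hides opposite differences. Of the plasma cell list, 5 of 15 genes had a value and 0 passed, against 1 at an unadjusted p under 0.05 (29.2% of all genes tested), *Cd38* (log2 fold change 1.08, adjusted p = 0.0712). Its markers *Sdc1* and *Igj*, 2 of 5 with a value, summed to between 3.85 and 17.1 CPM with dox and between 4.73 and 6.46 CPM without. Of the MEP list, 14 of 14 genes had a value, 0 were higher and *Ermap*, which encodes a red cell surface protein, was lower (-0.77, adjusted p = 0.0236), with a median of -0.46. The groups did not overlap for 9 of these genes, 8 lower and 1 higher (18.2% and 17.7% of all genes tested). *Epor*, the erythropoietin receptor, had -0.59 (adjusted p = 0.0875) and *Zfpm1*, a partner of GATA1, -0.49 (adjusted p = 0.117), and neither passed. *Itga2b*, a platelet integrin chain, had a log2 change of 2.52 (adjusted p = 0.0694). The lower count was 5 without dox-treated replicate 3, 1 without untreated replicate 2 and 0 without any other single library.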
